A study of Mus musculus with 18 samples.

Results

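The genes described here are the Serpina3 paralogs, a tandem family on mouse chromosome 12. They were chosen by name from a list of 8 (Serpina3n, Serpina3m, Serpina3g, Serpina3f, Serpina3i, Serpina3k, Serpina3c and Serpina3h), and 7 of the 27997 genes with a value belong to it. Serpina3k is not analysed here. The list was drawn up with values of these same libraries in view, so every difference of a member below is a description and carries no test. RNA was sequenced from 18 cultures, 3 replicates in each of 6 groups: neural stem cells (NSCs) and astrocytes of 3 lines. The tdTomato line (genotype DNGR-1 +/- Tom+/-) and the EYFP line (DNGR-1 +/- EYFP+/-) came from spinal cords of mice in which Cre expressed from the DNGR-1 gene Clec9a switches on a reporter at the ROSA locus. Such traced cells were sorted from neurospheres. The hippocampal line (DNGR-1+/+) came from mice with Glast-driven Cre, a floxed Huwe1 gene and a ROSA EYFP reporter. NSCs were grown on laminin with EGF and bFGF for 4 days. Astrocytes were differentiated from them for 6 days in BMP4 at 20 ng/ml, in a medium with no EGF or bFGF listed. Between the fates, BMP4, the lack of these factors and the day of collection therefore cannot be told apart. Replicates were successive passages of the same line. Each line stands for 1 derivation, so its tissue of origin, genotype and Cre driver cannot be told apart. The EYFP and hippocampal lines share an EYFP reporter, while between the tdTomato and EYFP lines reporter and derivation cannot be told apart.

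Serpins are protease inhibitors. The target protease cleaves an exposed stretch, the reactive centre loop, and is then trapped in a covalent complex, so the loop largely sets which protease a serpin binds. The human genome has a single SERPINA3, the acute-phase inhibitor antichymotrypsin, whereas rodents carry an expanded cluster whose loops are diverse. Serpina3n inhibits granzyme B and neutrophil proteases and is widely used as a marker of reactive astrocytes, in which its transcription responds to cytokines through STAT3.

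The 7 analysed genes and Serpina3k span 267948 bases (chr12:104146382-104414329, GRCm38, GENCODE M21). Serpina3n (ENSMUSG00000021091) lies at the right end (chr12:104406729-104414329, plus strand, 5 exons) and Serpina3c at the left end (chr12:104146382-104153870, minus strand). Serpina3f, Serpina3g, Serpina3h and Serpina3i lie between them on the plus strand, and Serpina3h is annotated as a transcribed pseudogene. The annotated span of Serpina3m (ENSMUSG00000079012, chr12:104338486-104394257) includes that of Serpina3k. Encoded residues were the same as in Serpina3n at 56.0% of loop positions and 76.1% of the other positions for Serpina3m, at 48.0% and 83.2% for Serpina3g, and at 40.0% and 77.8% for Serpina3f. The coding sequence used for Serpina3g has only 248 codons. Its 83.2% rests on 191 aligned positions, against 393 for Serpina3m and 383 for Serpina3f. The coding sequence of the loop is printed here because residues differed at a higher rate in it than outside it. Letters are GENCODE M21 transcripts, 5′ to 3′, and capitals mark codons for another residue than in Serpina3n.
Serpina3n loop: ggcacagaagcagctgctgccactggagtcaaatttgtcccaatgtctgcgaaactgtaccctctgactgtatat
Serpina3m loop: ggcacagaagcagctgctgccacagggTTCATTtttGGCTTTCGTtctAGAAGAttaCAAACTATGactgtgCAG
Serpina3f loop: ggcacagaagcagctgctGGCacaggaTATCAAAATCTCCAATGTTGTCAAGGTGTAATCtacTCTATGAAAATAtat
Serpina3g loop: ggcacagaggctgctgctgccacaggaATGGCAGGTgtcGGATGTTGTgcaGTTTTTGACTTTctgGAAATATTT
Serpina3c loop: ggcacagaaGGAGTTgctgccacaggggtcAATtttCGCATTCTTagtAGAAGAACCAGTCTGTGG
Serpina3i loop: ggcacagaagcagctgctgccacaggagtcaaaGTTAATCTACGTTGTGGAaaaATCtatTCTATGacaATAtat
Of the 25 codons in Serpina3m, 11 encode another residue than in Serpina3n. Serpina3i differs at 10 codons, Serpina3c at 12 of its 22, Serpina3g at 13 and Serpina3f at 16 of 26. In each gene most of the differing codons lie in the later part of the stretch.

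Values are the log2 values as deposited, on which weakly expressed genes are drawn towards a level of their own that differs from gene to gene. A member without reads therefore sits at a nearly flat level and not at 0. Of the 7 members, 2 (Serpina3n and Serpina3m) passed the low value filter (3 libraries or more at 3.32 log2 units or higher), and Serpina3m passed it only through the hippocampal astrocytes. The marker genes followed the labels. Gfap, the intermediate filament of astrocytes, averaged 9.06 to 9.30 in the NSC groups and 15.1 to 16.4 in the astrocyte groups, and the proliferation gene Mki67 averaged 12.9 to 13.0 against 6.54 to 6.91. Of the microglial genes, Aif1 and Itgam stayed at their flat level in every group, and Csf1r and Ptprc reached the filter in no library. Tmem119 averaged 6.15 and 5.36 in tdTomato NSCs and astrocytes against 1.73 and 1.80 in hippocampal ones. P2ry12 went the other way, at 3.44 in hippocampal astrocytes against 2.29 and 2.01 in tdTomato and EYFP astrocytes and 1.55 to 1.72 in NSC groups. The summed level of the 6 microglial genes with a value was 6.01 to 6.42 in tdTomato NSCs, 3.11 to 3.61 in the other NSCs, 4.13 to 5.94 in traced astrocytes and 3.97 to 4.19 in hippocampal astrocytes, and its part in the Serpina3 values was not tested. Huwe1 averaged 13.1 to 13.3 in all groups, hippocampal ones included, a gene-level value that does not show whether the floxed exons were lost.

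Serpina3n was measured in every group, and its level rose several log2 units with astrocyte differentiation in each line. In tdTomato NSCs it was at 6.37, 6.46 and 6.70 (log2 level in replicates 1 to 3), in EYFP NSCs at 5.79, 6.10 and 5.64, and in hippocampal NSCs at 5.54, 5.68 and 5.52. In astrocytes it was at 10.83, 10.17 and 10.38 in the tdTomato line, at 10.91, 10.14 and 10.42 in the EYFP line, and at 12.94, 12.24 and 12.17 in the hippocampal line. Every astrocyte library was above every NSC library, and the hippocampal astrocytes were above all the others. The difference between astrocyte and NSC means was 3.95 log2 units in the tdTomato line (10.46 ± 0.33 against 6.51 ± 0.17; SD, n = 3 each). It was 4.64 in the EYFP line (10.49 ± 0.39 against 5.85 ± 0.23) and 6.87 in the hippocampal line (12.45 ± 0.43 against 5.58 ± 0.09). On the linear scale of the deposited values these are 15.5-fold, 25.0-fold and 117-fold. Among 27997 genes, the rise of Serpina3n ranked 92nd, 43rd and 13th in the same order of lines. In bulk RNA, more cells with the transcript and more transcript per cell cannot be told apart.

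The order of the Serpina3n levels was hippocampal NSC, EYFP NSC, tdTomato NSC, tdTomato astrocyte, EYFP astrocyte and hippocampal astrocyte. The hippocampal and EYFP NSCs, neighbours in this order, overlapped between libraries, and so did the tdTomato and EYFP astrocytes, whose means differed by -0.03 (tdTomato minus EYFP). The tdTomato NSCs lay above the EYFP NSCs by 0.67 on average, and their nearest libraries were 0.27 apart. The hippocampal astrocytes lay above the traced astrocytes (mean difference of traced minus hippocampal -1.98), and their lowest library was 1.26 above the highest traced one. As NSCs, the hippocampal line had the lowest mean of the 3.

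**Figure D1:**
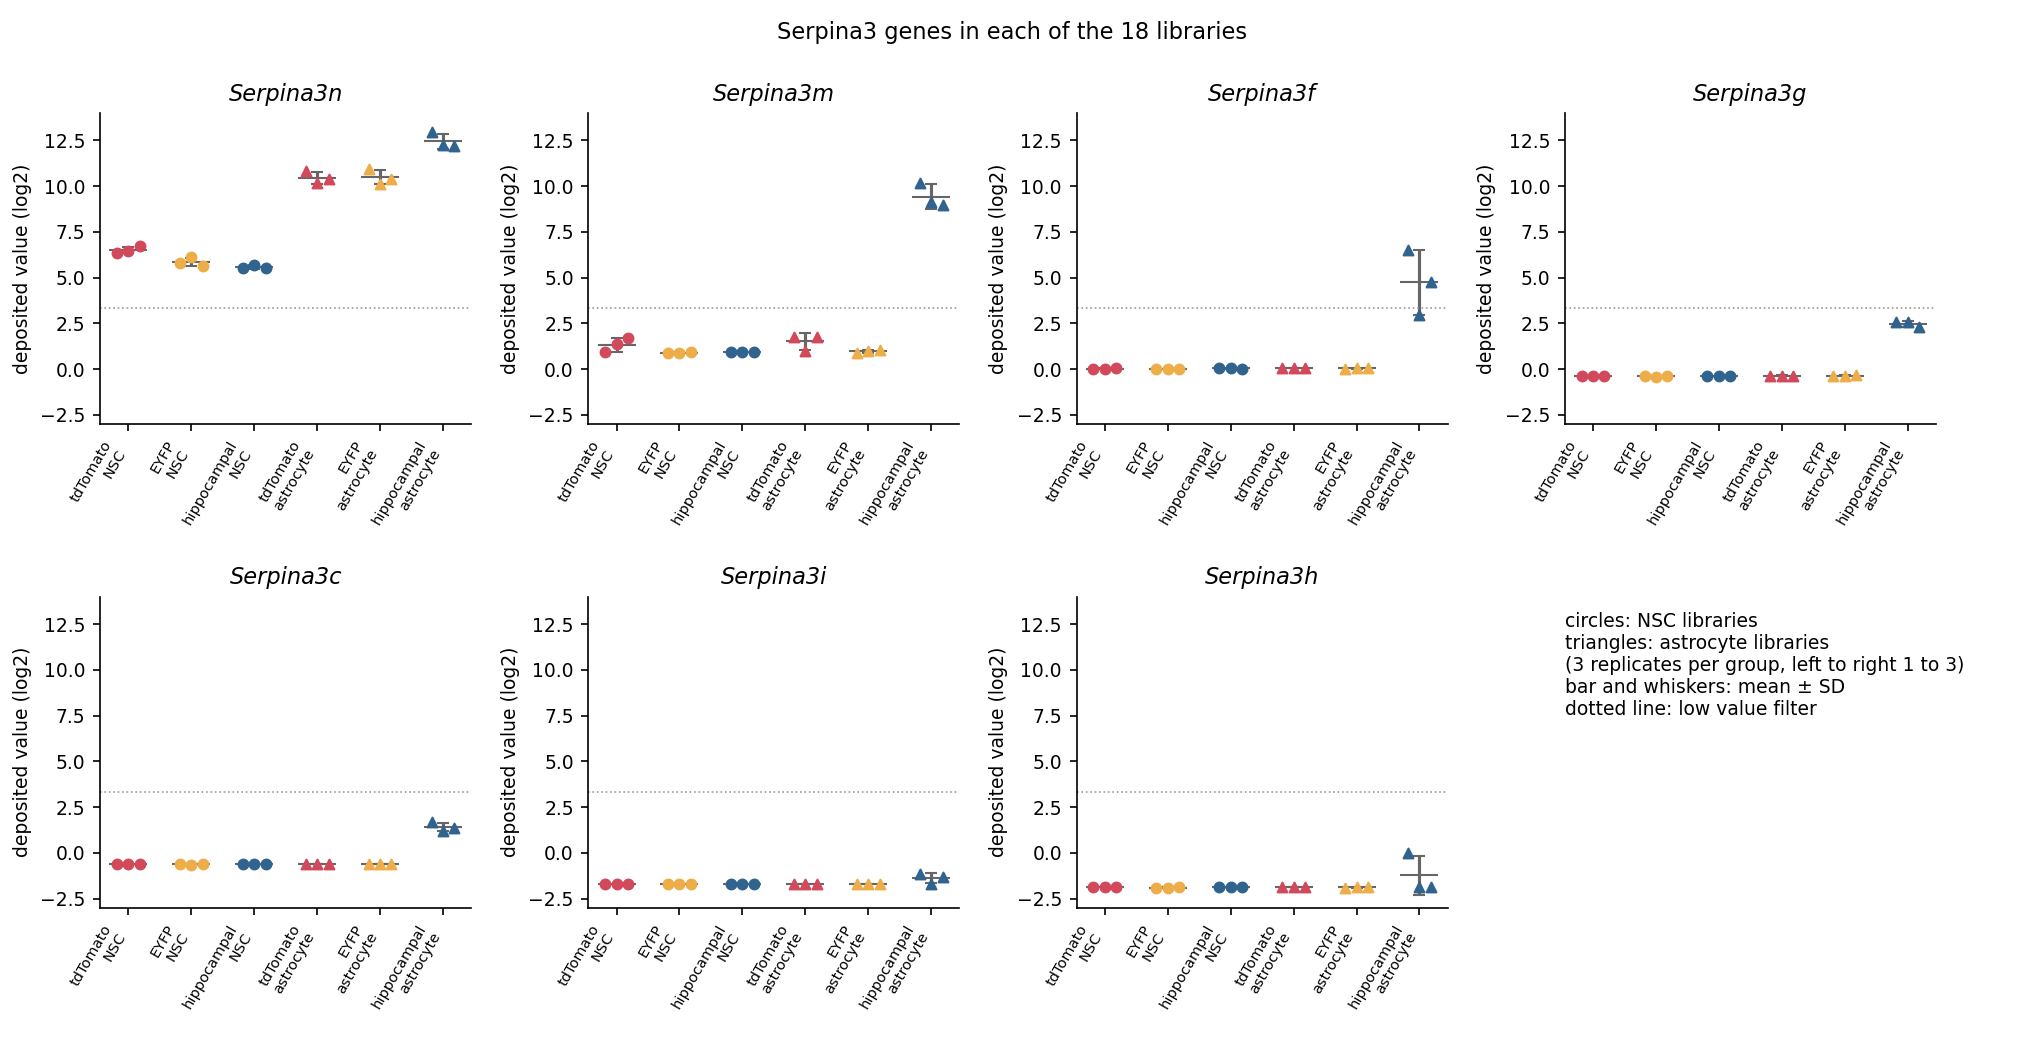
Deposited log2 values (vertical axis) of the 7 Serpina3 genes in the 18 libraries, by group; points are libraries, bars and whiskers the mean ± SD of n = 3, and the dotted line the low value filter of 3.32. Serpina3n is higher in all astrocyte groups, with means from 10.46 to 12.45, while Serpina3m, Serpina3f, Serpina3g and Serpina3c leave their flat level in the hippocampal astrocytes.

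Serpina3m, whose loop differs from that of Serpina3n at 11 of 25 codons, was near its flat level in 5 groups and high in the sixth. It was at 10.19, 9.13 and 8.95 in hippocampal astrocytes. The other 15 libraries lay between 0.86 and 1.77 with a median of 0.96, and the highest of them were tdTomato astrocytes (1.77, 0.99 and 1.77) and tdTomato NSCs (0.94, 1.34 and 1.71). The hippocampal difference between astrocytes (9.42 ± 0.67) and NSCs (0.95 ± 0.02) was 8.47, the second largest of 27997 genes, against 0.18 in the tdTomato and 0.08 in the EYFP line. Because the flat level has no fixed meaning, the size of this and of every other difference from a flat level depends on the transform, and no fold is given. With pseudocounts of 1 and 10 on the linear scale, the hippocampal difference of Serpina3m was 7.87 and 5.87. Per kilobase of transcript, Serpina3n was the higher of the pair in hippocampal astrocytes, at 11.41 ± 0.43 against 8.69 ± 0.67 (log2 level per kilobase, SD, n = 3).

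Serpina3f, Serpina3g and Serpina3c showed the same division at lower levels. Serpina3f was at 6.51, 2.94 and 4.79 in hippocampal astrocytes and between -0.02 and 0.08 in the other 15 libraries. Serpina3g, a cytosolic inhibitor of cysteine cathepsins, was at 2.58, 2.57 and 2.28 against -0.41 to -0.34. Serpina3c was at 1.67, 1.19 and 1.37 against -0.64 to -0.60. None of these groups overlapped the rest, but Serpina3f varied widely among replicates (4.75 ± 1.79, SD, n = 3), while Serpina3g did not (2.48 ± 0.17). Serpina3i was barely off its flat level, at -1.13, -1.68 and -1.33 against -1.72 to -1.69, with 0.007 between the nearest libraries. The pseudogene Serpina3h was at 0.01 in replicate 1 and at -1.85 and -1.88 in the others, which overlapped the remaining libraries (-1.90 to -1.87).

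The members that left their flat level are thus spread over the whole cluster, from Serpina3c at its left end to Serpina3m beside Serpina3n. In the hippocampal line, 5 of 7 members had astrocytes at least 1 log2 unit above NSCs without overlap, where 9.88% of all genes did. The count was 1 of 7, Serpina3n, in the tdTomato line (9.84% of all genes) and in the EYFP line (8.73%). Without the size limit, the hippocampal astrocytes were above the NSCs in 7 of 7 members (40.8% of all genes), the tdTomato astrocytes in 6 of 7 (43.5%) and the EYFP astrocytes in 1 of 7 (29.3%). In the tdTomato line, 5 of those 6 members differed by only 0.01 to 0.03, at their flat level. No member was lower in astrocytes (24.2%, 23.3% and 23.8% of all genes in the tdTomato, EYFP and hippocampal lines). These shares stand beside counts of genes chosen with these values known, and nothing is read from them.

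**Figure D2:**
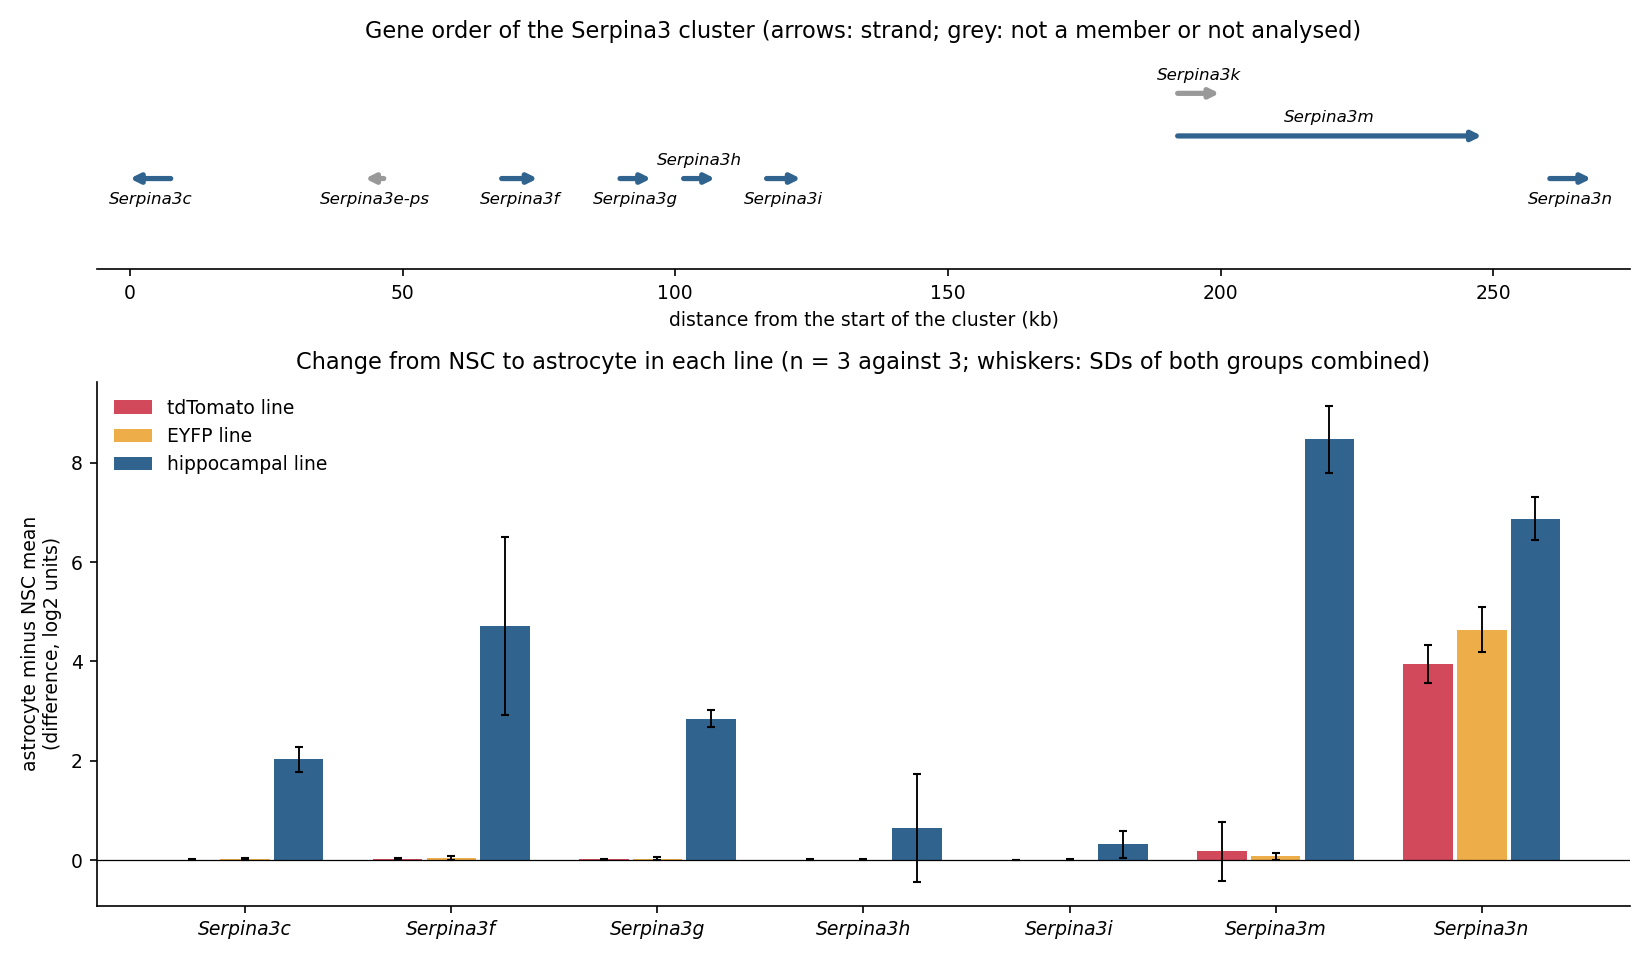
Top, order and strand of the cluster genes by distance from its left end (kb), with Serpina3k and the pseudogene Serpina3e-ps in grey. Bottom, astrocyte minus NSC difference (log2 units) of each analysed member in the 3 lines, with whiskers for the SDs of both groups combined (n = 3 each): 1 gene, Serpina3n, has tall bars in all lines (3.95, 4.64 and 6.87), and Serpina3m has one in the hippocampal line alone (8.47).

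Within a fate, the lines differed little as NSCs. No member separated traced from hippocampal NSCs without overlap between libraries, although the traced mean of Serpina3n was 0.60 higher (7.46% of all genes were higher and 7.45% lower without overlap). The tdTomato NSCs were above the EYFP NSCs in 7 of 7 members (31.2% of all genes), by 0.67 for Serpina3n, 0.45 for Serpina3m and 0.01 to 0.04 for the others, and none was lower (13.4%). As astrocytes, the traced libraries were below the hippocampal ones in 6 of 7 members (17.7% of all genes) and above them in none (12.7%). The mean difference was -8.19 for Serpina3m (1.24 ± 0.41 against 9.42 ± 0.67; SD, n = 6 and 3), -4.69 for Serpina3f, -2.84 for Serpina3g and -2.02 for Serpina3c. No member separated tdTomato from EYFP astrocytes (9.35% of all genes were higher and 9.74% lower).

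The distance of the hippocampal astrocytes from all other cultures was then set against that of every gene. For each gene, the highest of the other 15 libraries was subtracted from the lowest hippocampal astrocyte library. Serpina3m had the widest gap of all 27997 genes, 7.18 log2 units, ahead of Aspg (6.81), Oasl2 (6.07), Cnmd (6.00) and Ifi202b (5.95), the genes next in rank. The gap ranked 49th for Serpina3f (2.86), 60th for Serpina3g (2.62), 151st for Serpina3c (1.78) and 255th for Serpina3n (1.26). It was at least 1 in 5 of 7 members and in 1.26% of all genes, and above 0 in 6 of 7 members and in 10.0% of all genes. With a pseudocount of 10 on the linear scale, the gap was at least 1 in 2 of 7 members and in 0.925% of all genes.

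**Figure D3:**
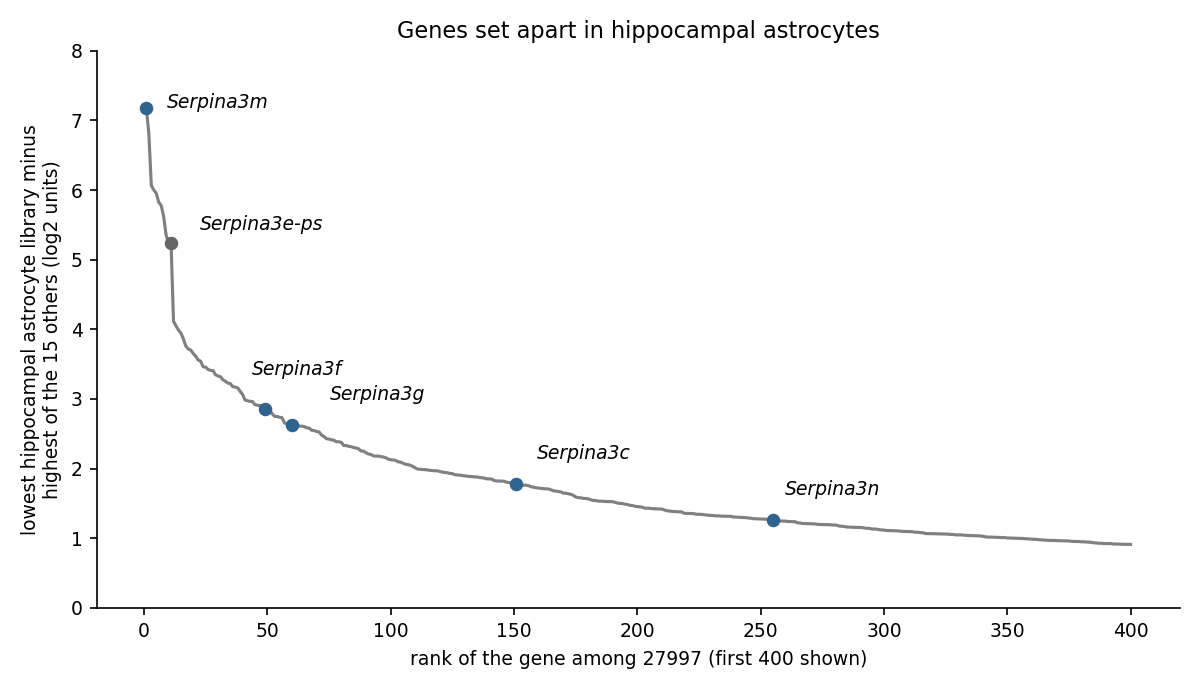
Gap between the lowest hippocampal astrocyte library and the highest of the 15 other libraries (vertical axis, log2 units) for the 400 genes in which it was widest, by rank; blue points are Serpina3 genes and the grey point the pseudogene Serpina3e-ps. Serpina3m is first (7.18), Serpina3e-ps 11th (5.24), and Serpina3f, Serpina3g, Serpina3c and Serpina3n lie between 2.86 and 1.26.

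Serpina3e-ps, a pseudogene of the same cluster that is not on the list and was picked after its values were seen, was at 7.93, 6.61 and 6.17 in hippocampal astrocytes and between 0.30 and 0.93 elsewhere. Of the other clade A serpins, Serpina1a, a paralog of the liver protein antitrypsin, averaged 0.04 in hippocampal astrocytes and stayed at or below -0.64 in the other libraries. For Serpina1b, Serpina1c and Serpina10, the hippocampal astrocytes lay within the range of the rest.

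Replicate 1 of the hippocampal astrocytes was the highest of its group for 7 of 7 members. It was the highest for 30.4% of all genes and for 62.2% of the 352 genes with a gap of at least 1. For Serpina3n, replicate 1 was also the highest of the tdTomato and EYFP astrocytes. This replicate was singled out after its values were seen, and which passage it is was not stated.

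Reads that match several paralogs were divided between them by the authors' estimation, so part of a low member's value can come from a higher one. Sequence shared with another gene was therefore counted over all stretches of 75 bases, about the length of a read, on which the sources used here differ slightly. Serpina3n shared 1.46% of its stretches, with Serpina3e-ps and Serpina3g, and Serpina3c shared 0.327%. Serpina3m shared 9.65%, most of them (9.21%) with Serpina3k, and Serpina3g shared 7.69%, Serpina3i 6.62% and Serpina3f 5.33%. The pseudogenes shared the most, 11.0% for Serpina3h and 11.1% for Serpina3e-ps. With stretches of 50 bases the shares were 4.25% to 21.9%. Values of Serpina3m, Serpina3g, Serpina3f, Serpina3i, Serpina3h and Serpina3e-ps are therefore uncertain in their division, and how many reads were shared was not tested. The coding sequences of Serpina3m and Serpina3k are 91.8% identical over 1251 aligned bases, those of Serpina3n and Serpina3m 85.2%.

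**Figure D4:**
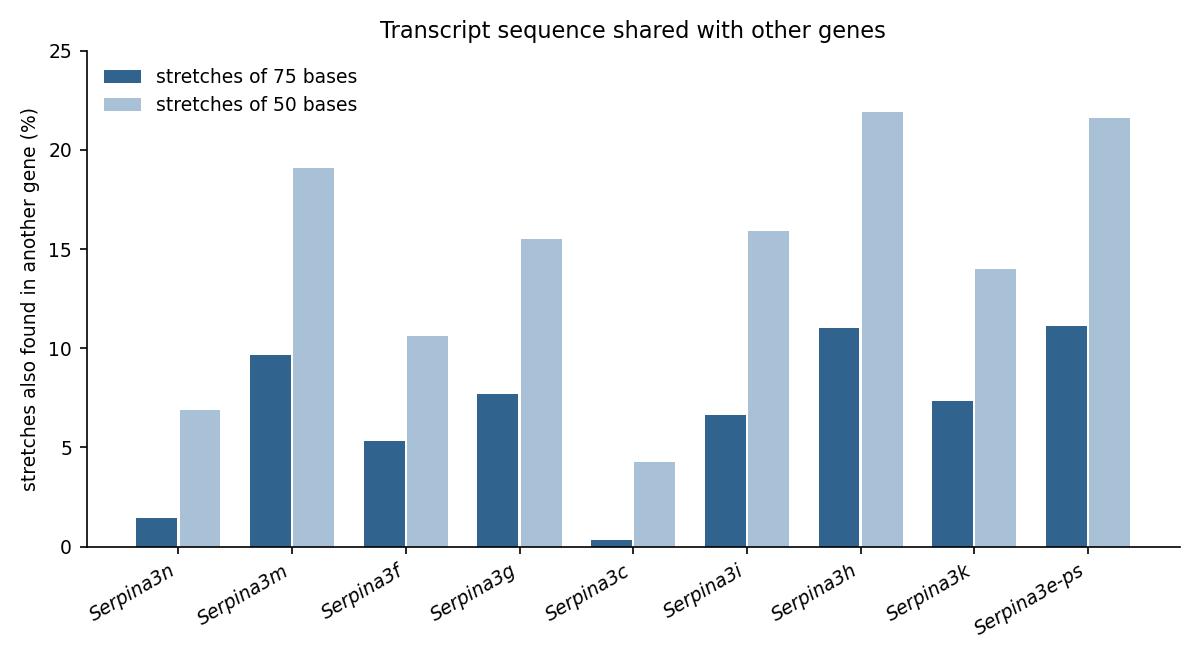
Share of all stretches of 75 bases (dark) and 50 bases (light) of each gene's transcripts that also occur in another gene (vertical axis, percent), from GENCODE M21. Serpina3n (1.46%) and Serpina3c (0.327%) share little at 75 bases, Serpina3m (9.65%) and the pseudogenes Serpina3h (11.0%) and Serpina3e-ps (11.1%) more.

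The sequence before the start of transcription is printed for the 5 members in the RefSeq promoter table, since Serpina3n moved in every line and the others in hippocampal astrocytes alone or hardly at all. Each line gives the 150 bases before the earliest annotated start (RefSeq and GENCODE, GRCm38), 5′ to 3′ on the gene's strand, and capitals mark TTCNNNGAA or TTNCNNGAA (STAT-like letters) and TATAAA.
Serpina3n, chr12:104406496-104406645 (+): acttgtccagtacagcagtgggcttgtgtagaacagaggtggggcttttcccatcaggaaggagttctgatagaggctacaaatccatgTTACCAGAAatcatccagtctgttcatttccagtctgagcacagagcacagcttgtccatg
Serpina3c, chr12:104153930-104154079 (-): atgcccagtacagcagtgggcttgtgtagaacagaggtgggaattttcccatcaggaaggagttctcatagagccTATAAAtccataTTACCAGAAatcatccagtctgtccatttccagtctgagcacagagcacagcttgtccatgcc
Serpina3g, chr12:104235997-104236146 (+): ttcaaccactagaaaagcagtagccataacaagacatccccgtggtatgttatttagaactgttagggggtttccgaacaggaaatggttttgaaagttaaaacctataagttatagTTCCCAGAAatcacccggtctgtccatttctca
Serpina3i, chr12:104262895-104263044 (+): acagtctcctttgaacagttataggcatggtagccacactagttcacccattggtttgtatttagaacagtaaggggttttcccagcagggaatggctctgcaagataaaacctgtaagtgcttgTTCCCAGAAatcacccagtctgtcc
Serpina3f, chr12:104214394-104214543 (+): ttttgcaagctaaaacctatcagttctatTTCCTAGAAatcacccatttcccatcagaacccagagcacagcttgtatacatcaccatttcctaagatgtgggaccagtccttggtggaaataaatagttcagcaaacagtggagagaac
Serpina3n and Serpina3c, at opposite ends of the cluster, were 94.6% identical here (140 of 148 aligned bases), although Serpina3n was at 5.52 or more in every library and Serpina3c at its flat level in 15 of them. Both held the letters TTACCAGAA. Serpina3n was 44.3% identical to Serpina3f, 63.4% to Serpina3i and 70.8% to Serpina3g. In 300-base RefSeq windows, of which these members have 6, TTCNNNGAA occurred on either strand in 4 (the windows of Serpina3f, Serpina3g and Serpina3i) and in 8.30% of 32851 windows in the genome. The looser TTNCNNGAA, chosen after the sequences were seen and overlapping the first, occurred in 6 of 6 and in 13.0%. The C/EBP-like letters TTNNGNAA occurred in 6 of 6 (40.7%), an NF-kB-like motif (GGG and CC around 5 free bases) in 4 (50.8%) and TATAAA in 2 (13.6%). The AP-1-like TGANTCA (7.81%), the BMP-responsive GGCGCC (11.9%) and an interferon-type motif (GAAA repeated after 2 free bases, 3.44%) were in none. A match is a description of letters and does not show that a factor binds.

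Genes around the family were tested with limma, over all genes that passed the filter, for the change from NSC to astrocyte in all lines. At an adjusted p under 0.05, 81.9% of 15448 genes changed, 42.1% upward and 39.8% downward. The lists below were chosen with earlier results of these data known, so their counts and medians are descriptions beside the shares of all genes. Listed genes that reached the filter on only 1 side of a comparison were kept by that side alone, so they are left out of the counts and medians given for a list and described without a test. Of the 17 genes of the IL-6 family and STAT3 pathway, which drives acute-phase transcription, 14 were tested, 10 rose and 2 fell (median difference 1.31 log2 units, against 0.02 over all genes tested). The oncostatin M receptor gene Osmr rose by 3.96 ± 0.17 (SE; adjusted p = 2.7e-13) and the ligand gene Cntf by 3.23 ± 0.22 (adjusted p = 2.5e-10). Stat3 rose by 0.87 ± 0.05 and its feedback inhibitor Socs3 by 1.46 ± 0.26 (adjusted p = 4.6e-11 and 4.4e-05). The ligand gene Lif fell by 0.87 ± 0.15 and the receptor gene Cntfr by 0.44 ± 0.05. Il6 and Osm did not pass the filter.

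Among 14 tested inflammatory and steroid inputs, 11 rose and 2 fell. The interleukin 1 receptor gene Il1r1 rose by 4.06 ± 0.21 (adjusted p = 4.1e-12). Fkbp5, a glucocorticoid-induced chaperone gene, fell by 1.72 ± 0.09 and Il1rap by 0.81 ± 0.10. All 8 BMP targets rose, Id4 by 4.33 ± 0.12 and Smad9 by 3.59 ± 0.08 (adjusted p = 1.1e-15 and 3.6e-17). Other acute-phase genes rose in 7 of 7 (median 2.15), the complement gene C3 by 6.59 ± 0.07 (adjusted p = 5.8e-21). Lcn2, a siderophore binder gene, and Steap4 reached the filter only in astrocytes. Lcn2 averaged 1.46 to 1.52 in the 3 NSC groups, below its level in each astrocyte group. With quantile normalization, 1 call was lost among these 9 genes.

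Serpins of other clades rose in 7 of 11 and fell in 2 (median 1.33), and 4 others reached the filter only in astrocytes. Serpinb9, the intracellular inhibitor of granzyme B, rose by 2.99 ± 0.10 (adjusted p = 8.4e-15). Serping1, the inhibitor of complement C1, was 1 of the 4, and averaged 1.64 to 1.79 in the NSC groups, 3.53 ± 0.54 and 3.49 ± 0.04 in tdTomato and EYFP astrocytes and 7.07 ± 0.38 in hippocampal astrocytes. Serpine2, an inhibitor of thrombin and plasminogen activators, fell by 0.63 ± 0.09, and the collagen chaperone gene Serpinh1 by 0.35 ± 0.07. Of the cysteine cathepsins, 3 of 4 tested rose, with Ctsb up by 1.90 ± 0.14 and Ctsh by 1.20 ± 0.16, and Ctsc fell by 1.86 ± 0.08 (adjusted p = 5.5e-10, 2.1e-06 and 3.1e-13). The list of serine proteases gave no test. Prtn3, a neutrophil serine protease gene, did not pass the filter, nor did the metalloproteinase gene Mmp9, which was placed on the same list, and granzyme B (Gzmb) is not analysed here. Genes beside the cluster on chromosome 12 were divided, with 3 of 8 up and 3 down. Ifi27, an interferon-induced gene, rose by 2.08 ± 0.12 and Syne3 by 0.85 ± 0.16, while Gsc fell by 1.35 ± 0.12 and Clmn by 0.64 ± 0.14.

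Between origins, the same lists were compared within each fate, first in astrocytes. Of 15025 genes tested, 52.0% differed, and 24.1% were higher and 27.9% lower in traced than in hippocampal astrocytes. Other acute-phase genes were lower in 8 of 9 (median -1.67, against -0.01 over all genes tested), and none was higher. Lcn2 averaged 3.86 ± 0.55 and 3.82 ± 0.32 in tdTomato and EYFP astrocytes and 7.79 ± 0.63 in hippocampal astrocytes, a difference of -3.94 ± 0.30 (SE; adjusted p = 2e-06). C3 averaged 14.51 ± 0.30, 14.66 ± 0.11 and 14.88 ± 0.04 in the same order and did not pass (-0.30 ± 0.11; adjusted p = 0.05, and 0.044 with the replicate block). Serpins of other clades were lower in 9 of 14 and higher in 2. Serping1 differed by -3.56 ± 0.23 (adjusted p = 7.7e-07). Serpinf2, the inhibitor of plasmin, was named after its values were seen and passed the filter only through the hippocampal astrocytes, so it is described without a test: it averaged 1.04 in both traced astrocyte groups and 5.40 ± 0.60 in the hippocampal one.

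The IL-6 and STAT3 genes were divided, 4 lower and 1 higher of 13, and their median was near that of all genes tested (-0.03 against -0.01). Traced minus hippocampal, Cntf differed by -1.69 ± 0.12 and Stat3 by -0.42 ± 0.06 (adjusted p = 1.4e-06 and 0.00028). Lif, which reached the filter only in the traced astrocytes, averaged 4.12 ± 0.15 and 3.79 ± 0.22 in tdTomato and EYFP astrocytes and 3.08 ± 0.07 in hippocampal astrocytes. Osmr differed by -0.03 ± 0.12 and Socs3 by 0.35 ± 0.37, and neither passed (adjusted p = 0.86 and 0.45). Inflammatory inputs were lower in 8 of 14 and higher in 3, with Il1r1 at -1.14 ± 0.12 (adjusted p = 1.8e-05). Of 4 cysteine cathepsins 2 were lower, among them Ctsb (-1.31 ± 0.08; adjusted p = 6.1e-07). BMP targets were higher in 3 of 8 and lower in 1, and genes beside the cluster were higher in 3 of 8 and lower in 2, among the latter Ifi27 (-1.58 ± 0.09; adjusted p = 3.9e-07).

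**Figure D5:**
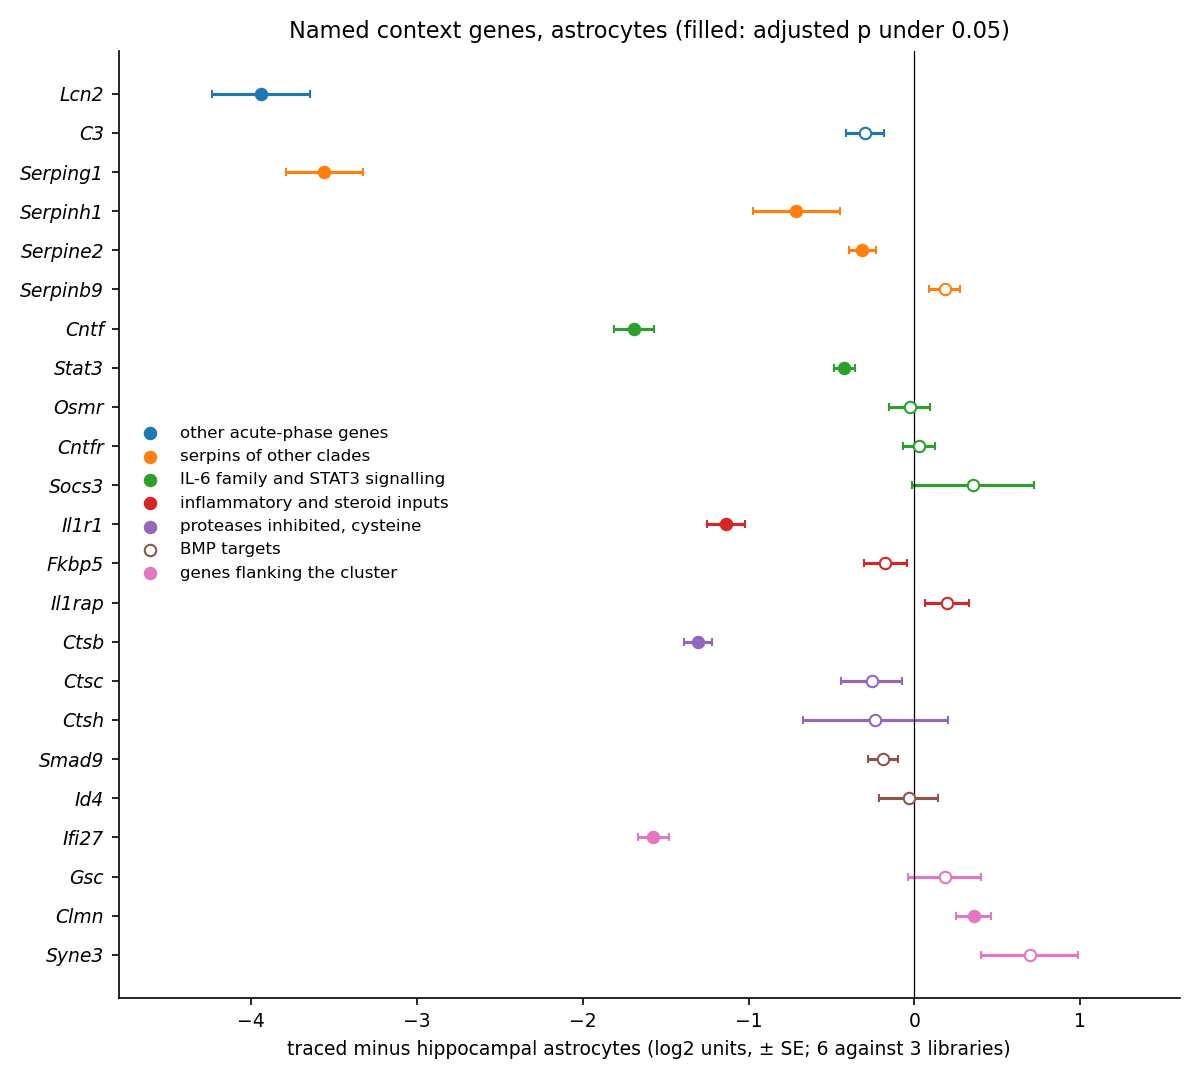
Difference between traced and hippocampal astrocytes (horizontal axis, log2 units, ± SE, 6 against 3 libraries) for the named genes of each list that reached the filter on both sides; filled points have an adjusted p under 0.05 by limma. Lcn2 (-3.94), Serping1 (-3.56), Cntf (-1.69), Ifi27 (-1.58), Ctsb (-1.31) and Il1r1 (-1.14) lie far to the left, and Osmr (-0.03) and Id4 (-0.04) lie near 0.

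As NSCs, 19.4% of 14541 genes differed between origins, 10.6% higher and 8.81% lower in traced cells, against 52.0% of all genes tested in astrocytes. Whether the lists changed between the fates otherwise than all genes was not tested. The number of genes called was 2822, against 1657 without hippocampal NSC replicate 3 and 1718 without replicate 1 or without replicate 2, and context genes called lower ranged from 2 to 6 when 1 library was left out, against 5. Of the 14 IL-6 and STAT3 genes 1 was higher, a count whose direction turned with the scaling (0 higher and 1 lower with median centring, 2 higher and 1 lower with quantile normalization). Of the 6 acute-phase genes tested 1 was higher and 1 lower, of the 11 serpins of other clades 3 were higher, and of the 14 inflammatory inputs 5 were higher and 1 lower. Ctsh was higher by 0.64 ± 0.20 and Serpine2 by 0.36 ± 0.10, and Ifi27 differed by -0.60 ± 0.06 (adjusted p = 0.045, 0.035 and 8.9e-05). The calls of Ctsh and Serpine2 were lost with the replicate block (adjusted p = 0.091 and 0.07) and without the low value filter, and that of Ctsh, the 1 cathepsin called higher, also with median centring and without trend. Replicates were passages of the same lines. The spread behind the p-values between origins also holds the difference between the tdTomato and EYFP lines, that of the change over all lines also holds differences between lines in this change, and the differences between origins compare 2 lines with 1.

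Lists of markers of other cell types differed between hippocampal and traced astrocytes in both directions. The summed level of 7 pericyte or fibroblast genes was 8.97 to 9.40 in hippocampal, 7.30 to 7.82 in tdTomato and 7.51 to 7.78 in EYFP astrocytes, against 5.15 to 5.66 in NSCs. Vtn averaged 8.61 in hippocampal astrocytes and 2.51 and 3.52 in the traced ones, whereas the defining genes Pdgfrb (-0.81) and Col1a2 (-2.13) were as low in hippocampal astrocytes as elsewhere. Kcnj8 was high in all astrocytes (7.02, 7.25 and 7.56 in the tdTomato, EYFP and hippocampal groups), and 3 genes of the list were lower in the hippocampal group, Lum (4.46, 3.79 and 1.56), Dcn (2.44, 1.05 and 0.16) and Col1a1 (4.68, 4.21 and 3.96). The oligodendrocyte list was lower in hippocampal astrocytes (8.01 to 8.26) than in traced ones (9.59 to 10.34), against 6.47 to 6.92 in NSCs, and so was the endothelial list (3.33 to 4.21 against 5.14 to 5.61). The part of these genes in the Serpina3 values was not tested. Aldh1l1, an astrocyte enzyme gene, averaged 10.3 in both hippocampal groups and 6.52 to 7.17 in the traced ones.

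The genes whose pattern over the 18 libraries was most like that of Serpina3n, by Pearson correlation among 15446 genes compared, were Spop (r = 0.994), Ndst1, Endod1, Tex264, Hexim1, Gpx4, Tspan4, Gabarapl1, Glis3 and Met (r = 0.991). The libraries share the split by fate, so such values are a description. Spop, a ubiquitin ligase adaptor gene, spanned 10.8 to 12.0 over the group means, and Met, the receptor gene for hepatocyte growth factor, 3.88 to 10.3. With correlations over the 6 group means, 2 of these 10 genes stayed among the first 10.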

How the data were processed

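RNA from 18 cultures was sequenced. Per the labels, the authors trimmed reads with Trimmomatic 0.36, mapped them to GRCm38 with STAR 2.5.2, estimated gene levels with RSEM 1.3.0, which divides reads shared by several genes, and used DESeq2 1.18.1. The deposited log2 values (-2.15 to 18.9) behave like a variance-stabilising transform whose name is not given in the sources used here. These values carry no counts, so the depth behind each is unknown, no counting interval or detection limit is given, and the size of a difference from a flat level depends on the transform.

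Differences, SDs and ranks were computed in Python 3.11.15 with pandas 2.3.3. Context genes were tested with limma 3.58.1 (R 4.3.3, trend, Benjamini-Hochberg) over genes at 3.32 or more in 3 libraries, with no replicate block. The script was checked on simulated data. Sequences came from GENCODE M21 and RefSeq tables, aligned with Biopython 1.88. Named context genes are, for each list, the 2 largest rises and 2 largest falls past the threshold from NSC to astrocyte, plus Stat3, Osmr, Socs3, Lcn2 and Ctsb, and, where said, genes picked later. 1 gene under this rule is not reported here. The members and lists were chosen with earlier results of these data known. Alternatives were other scalings, pseudocounts, filters, blocking on replicate number, and omitting single libraries.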

Additional observations from a re-analysis of the deposited data

Results flagged for a closer look

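In the 6 traced astrocyte libraries, replicate 1 of the EYFP astrocytes was the lowest and stood apart from the others for 4 members. It was at -0.3988 for Serpina3g (others -0.3606 to -0.3441), -0.005561 for Serpina3f (0.05253 to 0.07782), -1.711 for Serpina3i (-1.696 to -1.689) and -0.6346 for Serpina3c (-0.6093 to -0.5983). Its gap to the next library was 0.695 to 0.698 of the range. Such a test was made in 14 groups of 6 libraries (7 genes in 2 fates), and chance marks about 1 in 20. All 4 genes were at their flat level there, and of 2479 genes that varied by less than 0.2 over all 18 libraries, 84.7% were lowest in the same library.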

How the results depend on the processing

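No direction of a called value reversed. The hippocampal rise of Serpina3m was 7.87 with a pseudocount of 1 and 5.87 with 10, against 8.47, and its traced minus hippocampal astrocyte difference was -5.81 with 10, against -8.19, because a pseudocount lifts the flat level. Members with a gap of at least 1 numbered 2 with a pseudocount of 10, against 5 (an alternative chosen after seeing the data). Between origins in NSCs, context genes called lower numbered 5, and 2 without a filter, 3 without trend, and 8 each with median centring and quantile normalization, for which the cause was not tested. Leaving out 1 library gave 2 to 6 of these, 6 to 15 called higher (against 13) and 1657 to 2886 genes in all (against 2822), lowest without hippocampal NSC replicate 3 (1657) and next without replicate 1 or 2 (1718 each), which leaves 2 libraries in that group. Replicate numbers were not taken to pair the samples, since the labels name nothing they share and not every pair correlated over 0.1: deviations of same-numbered libraries correlated at -0.0235 on average between fates of a line (9 pairs) and at 0.106 across lines (18 pairs, 0.0117 to 0.313). Within numbers, traced minus hippocampal NSCs differed by 0.54 to 0.65 for Serpina3n. With the replicate block, context genes called lower in NSCs numbered 2, 6 named calls were lost (Serpine2, Ctsb, Ctsh, Il1rap and Clmn in NSCs, Serpinh1 in astrocytes) and 2 were gained (Osmr in NSCs, adjusted p = 0.032, and C3 in astrocytes, adjusted p = 0.044, by limma).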
